A study of Mus musculus with 3 samples.

Results

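Hyaluronan is a long, unbranched sugar polymer of the extracellular matrix, and the genes described here make it, bind it or break it down. The rule named 10 genes: the synthases Has1, Has2 and Has3, the hyaluronidases Hyal1 and Hyal2, the depolymerising protein Cemip, the receptor Cd44, the proteoglycan Vcan, the link protein Hapln1 and the secreted binding protein Tnfaip6. They were taken by gene symbol from a table of 18245 genes, which held 9 of them, and Hapln1 was not analysed here. The polymer is extruded through the plasma membrane by the synthase that makes it, without a protein core. In the embryonic heart it fills the cardiac jelly and, with versican, is required for the cushions that become the valves. Around migrating and mesenchymal cells it forms a hydrated coat that CD44 anchors to the cell surface.

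Polyadenylated RNA of 3 kinds of cultured cell from C57BL/6 mice was sequenced, and the labels give the epicardium of the ventricle as the tissue of each. Cardiosphere-derived cells (CDC) grew out of epicardial explants through floating spheres and received no inhibitor. The second kind (CDC-EpiC) was an epithelial clone picked from CDC cultures kept for 2 weeks with SB-431542 (10 µM), which blocks the kinase of the type I receptors for TGF-beta. Primary epicardial cells (pEpiC) were cultured without passing through spheres, and the study's methods describe their release by enzymes from dissected hearts, without naming the ventricle. No transgene was involved, and the 3 CDC-EpiC libraries stand for 1 clone, and how much clones vary is not in their spread.

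Each kind gave 3 libraries with 22008833 to 22756045 expected counts. The libraries were taken as n = 3, but it is not stated whether they represent different animals, cultures or extractions, and p-values then measure only the spread between these libraries, which may be technical. The epicardial transcription factor Wt1 stood at 10 ± 1.11 CPM (counts per 1000000 counts; SD, n = 3 here and below) in CDC, 119 ± 11.8 in CDC-EpiC and 51.1 ± 3.88 in pEpiC. All 8 epicardial markers examined had counts in every kind, but they did not share a common order of the kinds. Tbx18 was highest in CDC (92.7, 56.4 and 49.2 CPM in CDC, CDC-EpiC and pEpiC). Upk3b was lowest in pEpiC (229, 2655 and 69.4 CPM), and Aldh1a2 was highest there (2.31, 2.01 and 20 CPM). The 8 markers summed to 526 to 547 CPM in CDC, 4721 to 5510 in CDC-EpiC and 508 to 532 in pEpiC. Krt19, a keratin of epithelia, was lowest in pEpiC, with 30, 23 and 31 counts. The summed level of 10 macrophage markers was 72.5 to 74.3 CPM in CDC and 30 to 32.9 in CDC-EpiC, and 832, 327 and 299 in pEpiC libraries 1, 2 and 3. Library 1 of pEpiC held 2.46 to 3.08 times the mean of the other 2 for each of these markers, against 0.837 to 1.18 times for the 9 hyaluronan genes. Of these 10 genes, Ptprc, Adgre1, C1qb and Fcgr1 had at most 3 counts in every CDC library, and the same 4 genes together with C1qa and C1qc did so in CDC-EpiC. Other markers of the list were well above 0, with 786 to 867 counts of Lyz2, 409 to 448 of Csf1r and 252 to 355 of Cd14 in CDC, and Cd68 had 36 to 51 counts in CDC and 281 to 328 in CDC-EpiC. Summed fibroblast markers (6 genes) were 8590 to 11091 CPM in CDC, 6335 to 7791 in CDC-EpiC and 22221 to 24561 in pEpiC. Most of this sum was Col1a1 (5339, 1737 and 11072 CPM) and Col1a2 (3915, 3341 and 9991). The other members did not share that order. Thy1 was highest in CDC (291, 99 and 122 CPM). Dcn (462, 1839 and 1703) and Pdgfra (29, 60.9 and 352) were lowest in CDC, and Lum (9.18, 0.445 and 350) was lowest in CDC-EpiC. Endothelial markers (7 genes) summed to 40.2 to 54.8, 8.98 to 11.7 and 86.4 to 105 CPM, of which Flt1 alone held 47.7, 8.69 and 73.4 on average. Tek stood at 0.122, 0.937 and 17.6 CPM in CDC, CDC-EpiC and pEpiC, and Kdr at 0.563, 0.491 and 1.47. Pecam1, Cdh5, Tie1 and Emcn averaged below 0.5 CPM in every kind. Of 3 lymphatic endothelial markers, Pdpn (0.288, 0.193 and 291 CPM) and Prox1 (0.152, 0.0147 and 1.79) were highest in pEpiC. Flt4 (33.3, 21.2 and 2.15 CPM) was lowest there. Cardiomyocyte markers (5 genes) summed to 8.69 to 25.3, 8.95 to 12.1 and 136 to 152 CPM, and the pEpiC sum was nearly all Tnnt2 (145 CPM), with at most 3 counts of Myh6, Myl2 and Actc1 in each pEpiC library. Myh6 had 191, 190 and 0 counts in CDC libraries 1, 2 and 3. The part of other cell types in the results below was not tested, and in bulk RNA fewer cells of a type and less RNA per cell cannot be told apart.

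The hyaluronan genes differed between the kinds mainly by a lower level of Has2, Cd44, Vcan and Tnfaip6 outside CDC. In pEpiC against CDC, 7 of the 9 genes passed the threshold (adjusted p of 0.05, edgeR quasi-likelihood test over all genes), 2 higher and 5 lower. Of all 13526 genes tested there, 78.3% passed, 39.8% higher and 38.5% lower, so the count of 7 is close to the background. A change of at least 2-fold was found for 4 genes, all lower in pEpiC, against 30.1% of all genes in either direction. The libraries of pEpiC and CDC did not overlap for any of the 9 genes, which held for 81.5% of all genes. The median log2 difference was -0.74 over the 9 genes and 0.02 over all genes tested.

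In CDC-EpiC against CDC, 6 of the 9 genes passed, 1 higher and 5 lower, against a background of 68.8% of 12976 genes (34.2% higher and 34.6% lower). The 5 lower genes all changed at least 2-fold, which 21.7% of all genes did in either direction. The libraries did not overlap for 6 genes, against 72.1% of all genes, and the medians were -1.09 for the hyaluronan genes and 0.00 for all genes. In CDC-EpiC against pEpiC all 9 genes passed, 2 higher and 7 lower, where 81.9% of 13547 genes did so (40.3% higher and 41.5% lower). At least 2-fold changes were found for 6 genes, 2 higher and 4 lower, against 35.9% of all genes, and 9 genes had no overlap, against 84%. The medians were -0.59 and -0.02. The comparisons share libraries pairwise and are therefore not independent of each other.

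**Figure D1:**
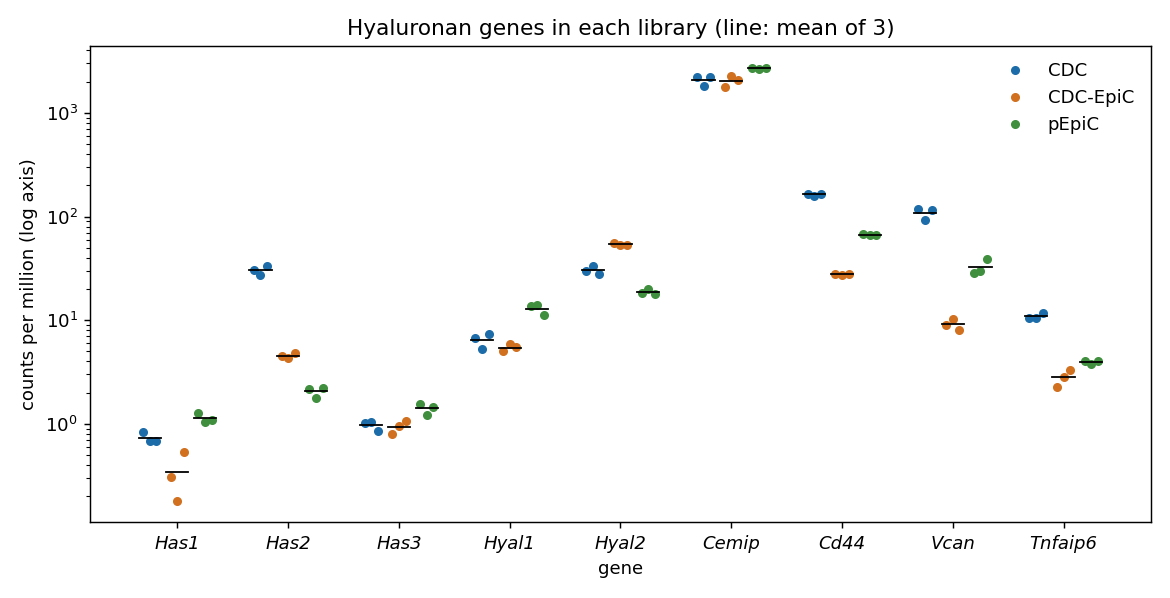
CPM of the 9 hyaluronan genes on a log axis, with 1 point per library and a line at the mean of the 3 libraries of each kind. Has2, Cd44, Vcan and Tnfaip6 are highest in all 3 CDC libraries, and Cemip lies above the other 8 genes in every library.

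The promoters of 4 genes are shown because Tnfaip6, Cd44 and Vcan were lower in both other kinds than in CDC, while Cemip stayed high in all kinds. The RefSeq table used (GRCm38.p6) had an entry for 8 of the 10 genes, and Has2 and Has3 were not among them. Each sequence ends before the start of transcription and is written 5′ to 3′ on the strand of the gene. The Tnfaip6 stretch is chr2:52037863-52038008 (plus strand), that of Cd44 chr2:102901666-102901915, that of Vcan chr13:89742513-89742762 and that of Cemip chr7:84086506-84086755 (all minus strand). Capitals mark exact matches to TGANTCA (the AP-1 site), CATTCC (the TEAD site) and CAGAC (a SMAD-binding element) on either strand, and to TATAAA (the TATA box) on the strand of the gene.

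Tnfaip6: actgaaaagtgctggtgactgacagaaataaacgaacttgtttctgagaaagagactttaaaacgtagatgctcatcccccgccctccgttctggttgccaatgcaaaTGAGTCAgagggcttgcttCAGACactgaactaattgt

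Cd44: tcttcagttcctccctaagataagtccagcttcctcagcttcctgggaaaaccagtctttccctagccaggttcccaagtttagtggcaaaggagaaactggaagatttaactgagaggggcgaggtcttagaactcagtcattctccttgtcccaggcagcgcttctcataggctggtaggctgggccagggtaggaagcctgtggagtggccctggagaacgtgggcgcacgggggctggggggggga

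Vcan: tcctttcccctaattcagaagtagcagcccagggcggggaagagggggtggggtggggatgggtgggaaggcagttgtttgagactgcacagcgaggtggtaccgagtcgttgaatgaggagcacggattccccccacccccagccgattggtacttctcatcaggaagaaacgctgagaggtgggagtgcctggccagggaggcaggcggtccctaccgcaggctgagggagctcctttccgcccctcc

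Cemip: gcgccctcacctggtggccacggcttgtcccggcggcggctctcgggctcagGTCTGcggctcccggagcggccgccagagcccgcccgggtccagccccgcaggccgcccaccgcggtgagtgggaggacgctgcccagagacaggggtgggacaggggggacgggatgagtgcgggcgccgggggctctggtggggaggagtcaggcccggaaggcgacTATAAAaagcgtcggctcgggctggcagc

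The search covered 250 bases before to 50 after the RefSeq start. The Tnfaip6 window held an AP-1 match 142 bases and a SMAD match 123 bases before the RefSeq start, and a TEAD match 8 bases before it. The GENCODE start of Tnfaip6 (chr2:52038009) lies upstream of the RefSeq start, and the stretch shown ends just before it. The TEAD match therefore lies outside that stretch and within the gene as GENCODE places it, and the other 2 matches are nearer to the GENCODE start. The AP-1 letters occur in 7.81% of the 32851 promoters of this length, the TEAD letters in 14.7% and the SMAD letters in 49.6%. In the Cemip window a TATA match began 29 bases before the start, as 8.32% of all promoters hold anywhere in the window, and 1 SMAD match lay 198 bases before it. No match was found in the Cd44 and Vcan windows. The matched letters did not overlap each other. The Cemip window was 73.7% G and C with 33 CpG pairs, against medians of 52.7% and 7 over all promoters, while the Tnfaip6 window was 47%, that of Cd44 58% and that of Vcan 61%. A match is a description of the letters, not a measured binding site.

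Longer transcripts had relatively more counts in pEpiC. The log2 difference rose by 0.397 per doubling of transcript length for pEpiC against CDC and fell by 0.404 for CDC-EpiC against pEpiC, but changed by 0.00108 for CDC-EpiC against CDC. An alternative fit corrected each library for this trend, and its value is given below beside some of the hyaluronan genes, not all that it moved. In pEpiC against CDC it moved Tnfaip6 from -1.51 to -1.15, Cd44 from -1.34 to -1.59 and Has2 from -3.93 to -4.16. In CDC-EpiC against pEpiC it moved Cd44 from -1.27 to -0.98 and made the difference of Has2 larger. These differences of Tnfaip6, Cd44 and Has2 kept their sign and stayed past the threshold.

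Has2, the synthase on which the embryonic heart depends, was the synthase with the most counts in every library. The gene lies on the minus strand of chr15:56665627-56694539 (GENCODE M21, GRCm38) with 4 exons, and the antisense gene Has2os overlaps 4596 bases of it. Has2 had 663, 606 and 737 counts in CDC, 101, 95 and 109 in CDC-EpiC and 50, 41 and 51 in pEpiC. The 3 kinds did not overlap, with CDC highest and pEpiC lowest. The means were 30.5 ± 2.94, 4.54 ± 0.265 and 2.06 ± 0.241 CPM. Has2 was thus 6.74-fold lower in CDC-EpiC than in CDC (log2 difference -2.75, SE 0.11, adjusted p = 6.2e-12) and 15.2-fold lower in pEpiC than in CDC (-3.93, SE 0.12, adjusted p = 2.0e-09). Between the last 2 kinds it was higher in CDC-EpiC (1.13, SE 0.16, adjusted p = 7.7e-05). Whether strand was used in counting is not stated, so reads of Has2os cannot be told apart from those of Has2 in the shared stretch, and Has2os itself was not analysed here.

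Has1 and Has3, which encode the other synthases, were near the lower end of what was detected. Has1 (chr17:17843323-17855205, minus strand, 5 exons) had 18, 15 and 15 counts in CDC, 7, 4 and 12 in CDC-EpiC and 29, 24 and 25 in pEpiC. The libraries of the 3 kinds did not overlap, with pEpiC highest. Has1 was lower in CDC-EpiC than in pEpiC (log2 difference -1.71, SE 0.36, adjusted p = 0.0012) and lower than in CDC (-1.09, SE 0.39, adjusted p = 0.0204). The second call was lost under DESeq2 (adjusted p = 0.122), against a 1.5-fold change (0.127) and without CDC library 1 (0.0726), CDC-EpiC library 1 (0.0695) or CDC-EpiC library 2 (0.104). The difference between pEpiC and CDC was 0.59 (95% interval 0.02 to 1.15, adjusted p = 0.054), and it passed the threshold in 6 of 18 alternative settings, among them the offset for transcript length (0.61, adjusted p = 0.0479).

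Has3 (chr8:106870242-106884566, plus strand) had 22, 23 and 19 counts in CDC, 18, 21 and 24 in CDC-EpiC and 36, 28 and 33 in pEpiC. CDC and CDC-EpiC overlapped, and every pEpiC library lay above both. The log2 difference of CDC-EpiC and CDC was -0.06 (95% interval -0.62 to 0.50, adjusted p = 0.85), and that of pEpiC and CDC was 0.49 (-0.04 to 1.01, adjusted p = 0.0795). The latter was 0.04 with the length offset (adjusted p = 0.888). It passed the threshold with library totals (0.60, adjusted p = 0.0367), with at least 10 counts in every library (0.52, adjusted p = 0.042) and on both TPM scales (log2(TPM + 1), 0.28, adjusted p = 0.00873). On log2(TPM + 1) the median over all genes was 0.41 in this comparison. Has3 had 0.273 TPM in CDC and 0.547 in pEpiC, so the added 1 shrinks its difference, which cannot be set directly against that median. With limma on log2(TPM + 0.1) it was 0.79 (adjusted p = 0.00593). Against pEpiC, Has3 was lower in CDC-EpiC (-0.59, SE 0.23, adjusted p = 0.0371), a call lost in 10 of 18 alternative settings, among them the offset for transcript length (-0.13, adjusted p = 0.626). It was also lost without CDC-EpiC library 1 (adjusted p = 0.11) or 2 (0.0764) and without pEpiC library 1 (0.0963) or 3 (0.0867). The protein-coding gene Chtf8 overlaps Has3 by up to 704 bases on the other strand. As strand use in counting is not stated, reads of the 2 genes cannot be told apart in that stretch.

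The make-up of the synthase transcripts was compared per length, in TPM (transcripts per 1000000 transcripts). Their summed TPM was 13.4 ± 1.66 in CDC, 2.5 ± 0.333 in CDC-EpiC and 2.79 ± 0.263 in pEpiC. Has2 made up 93.5%, 93.8% and 95.3% of this sum in the CDC libraries, 81.1%, 80.9% and 74.7% in CDC-EpiC and 41.3%, 41.4% and 42.6% in pEpiC. The ranges were separate, so a similar summed TPM in CDC-EpiC and pEpiC was made up differently. TPM was itself shifted between these kinds, with a median of -0.33 over all genes on log2(TPM + 1) for CDC-EpiC against pEpiC. Has1 took 3.73% ± 0.631, 10.2% ± 3.42 and 38.7% ± 0.696 of the sum. Has3 took 2.08% ± 0.375, 10.9% ± 1.46 and 19.6% ± 1.29. These shares were not tested, and those of Has1 and Has3 in CDC-EpiC rest on at most 24 counts per library.

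**Figure D2:**
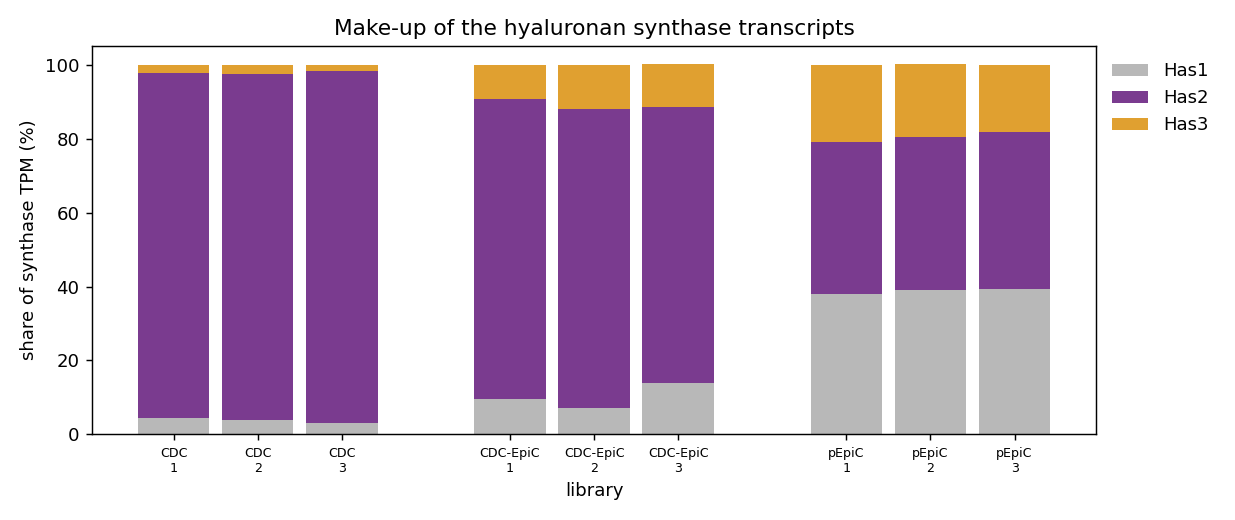
Share of Has1, Has2 and Has3 in their summed TPM, in percent, with 1 stacked bar per library. Has2 takes 93.5% to 95.3% in CDC, 74.7% to 81.1% in CDC-EpiC and 41.3% to 42.6% in pEpiC.

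Among the breakdown genes, Hyal1 and Hyal2 differed in opposite directions between CDC-EpiC and pEpiC. Both encode hyaluronidases, Hyal2 a form held at the cell surface by a lipid anchor and Hyal1 a lysosomal form, and they lie 4147 bases apart on the plus strand of chromosome 9. Hyal2 (chr9:107567945-107572779) had 652, 730 and 614 counts in CDC, 1243, 1179 and 1206 in CDC-EpiC and 421, 463 and 405 in pEpiC. All CDC-EpiC libraries stood above CDC, and all CDC libraries above pEpiC. The means were 30.3 ± 2.67, 54 ± 0.862 and 18.7 ± 1.28 CPM. The log2 difference was 0.83 for CDC-EpiC against CDC (SE 0.08, adjusted p = 2.6e-07), -0.74 for pEpiC against CDC (SE 0.09, adjusted p = 2.4e-05) and 1.53 for CDC-EpiC against pEpiC (SE 0.06, adjusted p = 8.8e-09). With the length offset the difference of pEpiC and CDC was -0.49 (adjusted p = 2.9e-04).

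Hyal1 (chr9:107576927-107581710) had 145, 115 and 163 counts in CDC, 113, 129 and 124 in CDC-EpiC and 313, 320 and 257 in pEpiC. The pEpiC libraries were highest without overlap, and those of CDC and CDC-EpiC overlapped. Hyal1 was higher in pEpiC than in CDC (log2 difference 0.96, SE 0.14, adjusted p = 1.0e-04) and lower in CDC-EpiC than in pEpiC (-1.25, SE 0.12, adjusted p = 4.6e-06). Between CDC-EpiC and CDC the difference was -0.24 (95% interval -0.57 to 0.08, adjusted p = 0.161), and without CDC library 2 it passed the threshold (-0.38, adjusted p = 0.039). The ratio of Hyal2 to Hyal1 in TPM was 5.74 ± 1.57 in CDC, 11.7 ± 1.1 in CDC-EpiC and 1.71 ± 0.133 in pEpiC. The Hyal1 gene overlaps Naa80 by 2824 bases and Hyal3 by 893 bases on the same strand, so reads of these genes could be split between them. Hyal3, another hyaluronidase gene, stood at 1.11, 1.27 and 1.06 CPM in CDC, CDC-EpiC and pEpiC.

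Cemip, whose product binds hyaluronan and is needed for its depolymerisation at the cell surface, was the most abundant of the 9 genes by far in every kind. It spans chr7:83932857-84086502 on the minus strand with 29 exons. The counts were 47730, 39997 and 48642 in CDC, 40201, 49875 and 46832 in CDC-EpiC and 62750, 60679 and 62412 in pEpiC. The pEpiC libraries were highest without overlap, while CDC and CDC-EpiC overlapped. In TPM the level was 502 ± 67.1 in CDC, 519 ± 59.5 in CDC-EpiC and 901 ± 7.15 in pEpiC, and its rank among the 18245 genes was 249 to 328, 252 to 312 and 146 to 151. On counts, Cemip was higher in pEpiC than in CDC by a log2 difference of 0.34 (SE 0.08, adjusted p = 0.0029). With an offset for transcript length the sign turned (-0.17, adjusted p = 0.0246). On log2(TPM + 1) the difference was 0.85, but the median over all genes on that scale was 0.41, against 0.02 on counts. Against pEpiC, CDC-EpiC was lower by count (-0.41, adjusted p = 0.0011) and not past the threshold with that offset (0.12, adjusted p = 0.201). The direction of this gene between pEpiC and the other kinds therefore depends on whether counts are offset for transcript length. CDC-EpiC and CDC differed by -0.03 (95% interval -0.26 to 0.20, adjusted p = 0.817), with a sign that changed in 7 of 18 settings. Cemip2, which encodes a membrane-bound relative, was less abundant throughout, with a ratio of Cemip to Cemip2 in TPM of 79.2 ± 8.41 in CDC, 45.4 ± 4.23 in CDC-EpiC and 119 ± 13.6 in pEpiC.

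Cd44 encodes the main cell-surface receptor of hyaluronan. It lies at chr2:102811141-102901665 on the minus strand, with 9 to 19 exons in its protein-coding transcripts, and the table sums its splice forms. Cd44 had 3589, 3513 and 3672 counts in CDC, 636, 606 and 628 in CDC-EpiC and 1560, 1517 and 1526 in pEpiC. The kinds were widely separate, with CDC highest and CDC-EpiC lowest. The means were 164 ± 3.79, 27.8 ± 0.308 and 66.8 ± 0.775 CPM. The log2 difference was -2.56 for CDC-EpiC against CDC (SE 0.07, adjusted p = 2.7e-13), -1.34 for pEpiC against CDC (SE 0.05, adjusted p = 1.3e-08) and -1.27 for CDC-EpiC against pEpiC (SE 0.05, adjusted p = 4.9e-09).

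Vcan encodes versican, the large proteoglycan that aggregates on hyaluronan chains in loose and developing tissue. It lies at chr13:89655312-89742509 on the minus strand, 43659 bases from Hapln1, which encodes the link protein that locks such aggregates. Vcan had 2581, 2042 and 2568 counts in CDC, 204, 227 and 181 in CDC-EpiC and 660, 686 and 879 in pEpiC. The order of the kinds was that of Cd44, again without overlap. The means were 109 ± 14.5, 9.11 ± 1.15 and 32.3 ± 5.37 CPM. Vcan was 12-fold lower in CDC-EpiC than in CDC (log2 difference -3.59, SE 0.12, adjusted p = 8.9e-13). It was lower in pEpiC than in CDC (-1.80, SE 0.12, adjusted p = 4.6e-07), and the difference was -2.40 with the length offset (adjusted p = 2.1e-08). It was also lower in CDC-EpiC than in pEpiC (-1.83, SE 0.13, adjusted p = 5.6e-07), which became -1.18 (adjusted p = 1.4e-05) with the length offset.

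Tnfaip6 encodes TSG-6, which transfers heavy chains of inter-alpha-inhibitor onto hyaluronan. It lies at chr2:52038009-52056686 on the plus strand with 6 exons. Tnfaip6 had 226, 232 and 261 counts in CDC, 51, 63 and 75 in CDC-EpiC and 93, 87 and 93 in pEpiC. The kinds did not overlap, and CDC-EpiC was lowest. The means were 10.9 ± 0.777, 2.81 ± 0.535 and 3.96 ± 0.152 CPM. The log2 difference was -1.96 for CDC-EpiC against CDC (SE 0.15, adjusted p = 1.6e-08) and -1.51 for pEpiC against CDC (SE 0.11, adjusted p = 7.0e-07). CDC-EpiC was lower than pEpiC (-0.50, SE 0.17, adjusted p = 0.0208). That call was lost under DESeq2 (adjusted p = 0.0661), against a 1.5-fold change, without CDC-EpiC library 1 (0.0686) and without pEpiC library 3 (0.056), and the difference was -0.82 with the length offset (adjusted p = 0.00144).

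**Figure D3:**
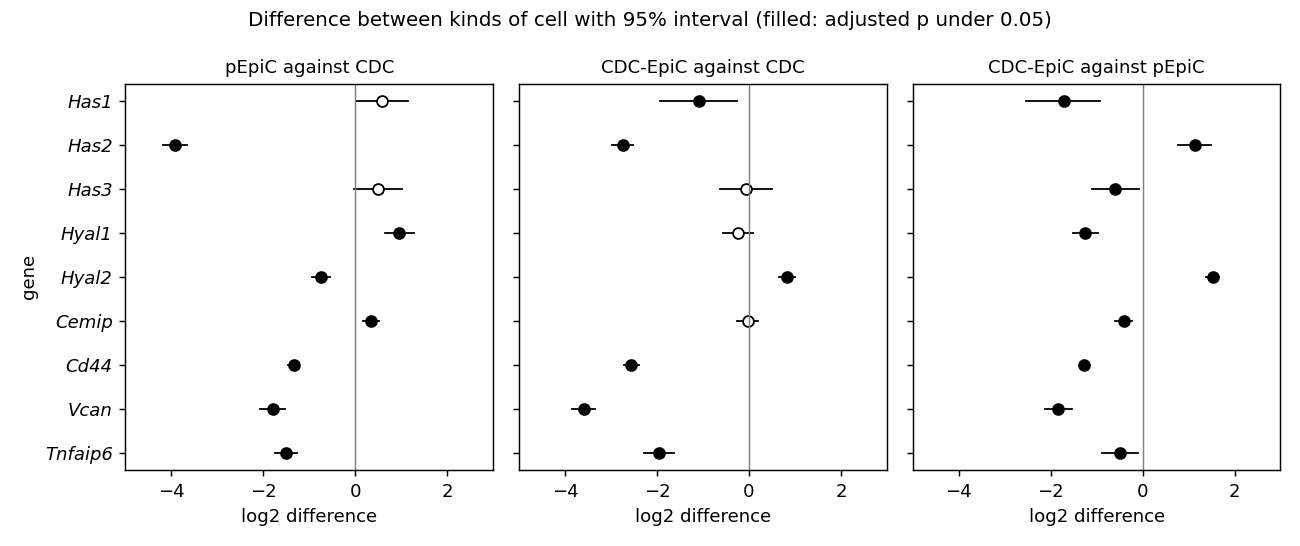
Log2 difference of each hyaluronan gene in the 3 comparisons of kinds, with its 95% interval and filled points where the adjusted p was under 0.05. Has2, Cd44, Vcan and Tnfaip6 lie left of 0 in both comparisons with CDC, and Has2 and Hyal2 are the 2 genes right of 0 in CDC-EpiC against pEpiC.

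Ordered by TPM within CDC, Cemip (502) was followed by Cd44 (64.4), Hyal2 (28.8), Vcan (20.4), Has2 (12.6), Tnfaip6 (12.1), Hyal1 (5.22), Has1 (0.493) and Has3 (0.273). Only the neighbours Has2 and Tnfaip6 overlapped between their libraries. In CDC-EpiC the order was Cemip (519), Hyal2 (53.9), Cd44 (11.6), Hyal1 (4.63), Tnfaip6 (3.28), Has2 (1.97), Vcan (1.86), Has3 (0.273) and Has1 (0.263). There Has2 overlapped with Vcan, and Has3 with Has1. In pEpiC it was Cemip (901), Cd44 (36.2), Hyal2 (24.5), Hyal1 (14.4), Vcan (8.33), Tnfaip6 (6.04), Has2 (1.17), Has1 (1.08) and Has3 (0.547), where Has2 and Has1 overlapped. Hyal2 thus ranked above the receptor Cd44 in CDC-EpiC and below it in the other kinds.

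Around these genes a wider list of the hyaluronan pathway was examined, of which 46 genes had a row in the table. In pEpiC against CDC, 27 of 37 tested genes passed, 16 higher and 11 lower, with a median log2 difference of 0.07. In CDC-EpiC against CDC, 31 of 36 passed, 13 higher and 18 lower (median -0.20), and in CDC-EpiC against pEpiC 27 of 37, 7 higher and 20 lower (median -0.22). Against the backgrounds of 78.3%, 68.8% and 81.9%, the share that passed lay below in the first and the last comparison and above in CDC-EpiC against CDC. Of all genes, 39.8% passed higher and 38.5% lower in the first comparison. These shares were 34.2% and 34.6% in CDC-EpiC against CDC, and 40.3% and 41.5% in CDC-EpiC against pEpiC. The counts by group below stand against these shares, so a group in which most genes passed is not set apart by that.

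The precursor genes make the sugar nucleotides that the synthases join. Of 8 such genes, 7 passed in pEpiC against CDC (3 higher, 4 lower), 7 in CDC-EpiC against CDC (2 higher, 5 lower) and 4 in CDC-EpiC against pEpiC (all lower). The shares of all genes that passed were 78.3%, 68.8% and 81.9%. Ugdh, which makes UDP-glucuronic acid, had 4710, 4972 and 5331 counts in CDC, 2716, 2465 and 2760 in CDC-EpiC and 2771, 2983 and 2940 in pEpiC. CDC stood above both other kinds, which overlapped. Ugdh was 1.94-fold lower in CDC-EpiC than in CDC (adjusted p = 3.0e-08) and 1.86-fold lower in pEpiC (adjusted p = 5.8e-07). Gfpt2, an enzyme of the first step of hexosamine synthesis, had 229 ± 8.41 CPM in CDC, 55.9 ± 4.15 in CDC-EpiC and 145 ± 2.23 in pEpiC. It was 4.11-fold lower in CDC-EpiC than in CDC (adjusted p = 8.2e-12).

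The receptors and binding proteins other than Cd44 moved in different directions. Of the 10 listed, 7 were tested in pEpiC against CDC, where 4 were higher and 1 lower. Of 8 tested, 3 were higher and 4 lower in CDC-EpiC against CDC, and 2 were higher and 5 lower in CDC-EpiC against pEpiC. Hmmr, a hyaluronan-binding protein of the mitotic spindle whose level follows cell division, stood at 53.7 ± 2.15 CPM in CDC, 18.7 ± 2.11 in CDC-EpiC and 15.7 ± 1.06 in pEpiC. It was lower than in CDC in CDC-EpiC (log2 difference -1.53, adjusted p = 6.8e-10) and in pEpiC (-1.82, adjusted p = 9.9e-09). Layn, a membrane receptor for hyaluronan, had 52.8 ± 6.04, 16.7 ± 1.49 and 68.4 ± 2.86 CPM, and was 4.11-fold lower in CDC-EpiC than in pEpiC (adjusted p = 3.8e-09). Stab1, a scavenger receptor of macrophages and sinusoidal endothelium, had 27 counts in each CDC library, 20, 17 and 12 in CDC-EpiC and 1666, 526 and 495 in pEpiC. Library 1 of pEpiC was the highest for Stab1, as it was for the macrophage markers. Without it the pEpiC against CDC difference was 4.13 (adjusted p = 1.7e-09), and with it 4.93 (SE 0.57, adjusted p = 1.9e-05). Lyve1, the receptor of lymphatic endothelium, had 0 to 9 counts in every library and was not tested.

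Partners that the matrix coat takes up were also uneven. Ptx3, a pentraxin that joins heavy chains of the hyaluronan coat, had 3221, 3066 and 3180 counts in CDC, 232, 221 and 290 in CDC-EpiC and 2337, 1980 and 2511 in pEpiC. CDC-EpiC was lowest without overlap. Ptx3 was 13.1-fold lower in CDC-EpiC than in CDC (log2 difference -3.71, SE 0.10, adjusted p = 1.2e-13) and 8.99-fold lower than in pEpiC (-3.17, SE 0.11, adjusted p = 4.3e-09). Itih2, one of the heavy chain genes, had 23.4 ± 1.71, 8.61 ± 0.899 and 6.1 ± 0.386 CPM in CDC, CDC-EpiC and pEpiC, and fell in both against CDC (-1.45, adjusted p = 6.6e-09, and -1.98, adjusted p = 3.3e-08). Itih4, a relative, went the other way in the clone, with 36, 38 and 48 counts in CDC, 204, 312 and 229 in CDC-EpiC and 60, 59 and 56 in pEpiC. It was 5.95-fold higher in CDC-EpiC than in CDC (adjusted p = 1.3e-08) and 4.35-fold higher than in pEpiC (adjusted p = 2.0e-06). Itih5 had 18, 20 and 28 counts in CDC, 10, 10 and 5 in CDC-EpiC and 31, 25 and 19 in pEpiC, and Itih1 and Itih3 had 0 to 21 counts in every library and were not tested. Of the 13 matrix partners listed, 6 to 8 were tested in a comparison, and 4, 4 and 6 passed, against 78.3%, 68.8% and 81.9% of all genes.

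Of 6 further turnover genes, 1 was higher and 3 were lower in pEpiC against CDC, 4 were higher and 1 lower in CDC-EpiC against CDC, and 2 were higher and 1 lower in CDC-EpiC against pEpiC. Cemip2 had 23.6 ± 2.21 CPM in CDC, 40.2 ± 3.1 in CDC-EpiC and 20.5 ± 2.27 in pEpiC. In CDC-EpiC it exceeded CDC (log2 difference 0.76, adjusted p = 2.1e-06) and pEpiC (0.96, adjusted p = 3.4e-06). Between pEpiC and CDC its difference was -0.25 (adjusted p = 0.04), with overlapping libraries. That call was kept in 7 of 18 settings, and the sign turned in 2 of them all. Another of the 3 genes called lower there also had overlapping libraries and kept its call in 8 of 18 settings.

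Of the 6 ADAMTS genes listed for enzymes that cut versican, 5 were tested. All 5 passed in each comparison, where 78.3%, 68.8% and 81.9% of all genes did. In pEpiC against CDC 4 were higher and 1 lower. In CDC-EpiC against CDC 2 were higher and 3 lower, and in CDC-EpiC against pEpiC 1 was higher and 4 lower. Adamts1 had 199 ± 23.9 CPM in CDC, 30.1 ± 4.27 in CDC-EpiC and 377 ± 2.15 in pEpiC, and was 6.63-fold lower in CDC-EpiC than in CDC (adjusted p = 1.4e-11) and 12.6-fold lower than in pEpiC (adjusted p = 3.3e-10). Adamts5 had 203 ± 12, 108 ± 6.12 and 710 ± 13.6 CPM, 6.58-fold lower in CDC-EpiC than in pEpiC (log2 difference -2.72, adjusted p = 1.7e-10, and -2.13 with the length offset). Adamts15 had 10, 6 and 11 counts in CDC, 47, 42 and 49 in CDC-EpiC and 1244, 1266 and 1114 in pEpiC, so that the pEpiC libraries stood far above the others. It was 123-fold higher in pEpiC than in CDC (log2 difference 6.94, SE 0.14, adjusted p = 2.0e-10). Adamts4 was 5.2-fold lower in CDC-EpiC than in pEpiC (adjusted p = 8.0e-09), with 3.47 ± 0.106 and 18 ± 0.792 CPM. Adamts9, named after its values were seen, was on counts lowest in pEpiC and highest in CDC-EpiC, with 103 CPM in CDC, 129 in CDC-EpiC and 71.3 in pEpiC (pEpiC against CDC, log2 difference -0.57, adjusted p = 4.8e-05). That difference was -1.10 with the length offset and -0.06 on log2(TPM + 1) with limma (adjusted p = 0.546), and 15 of 18 settings kept the call. Of the 3 genes for enzymes that cut CD44 (Adam10, Adam17, Mmp14), 2 were higher in pEpiC than in CDC, 1 was higher and 2 were lower in CDC-EpiC than in CDC, and 2 were lower in CDC-EpiC than in pEpiC.

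**Figure D4:**
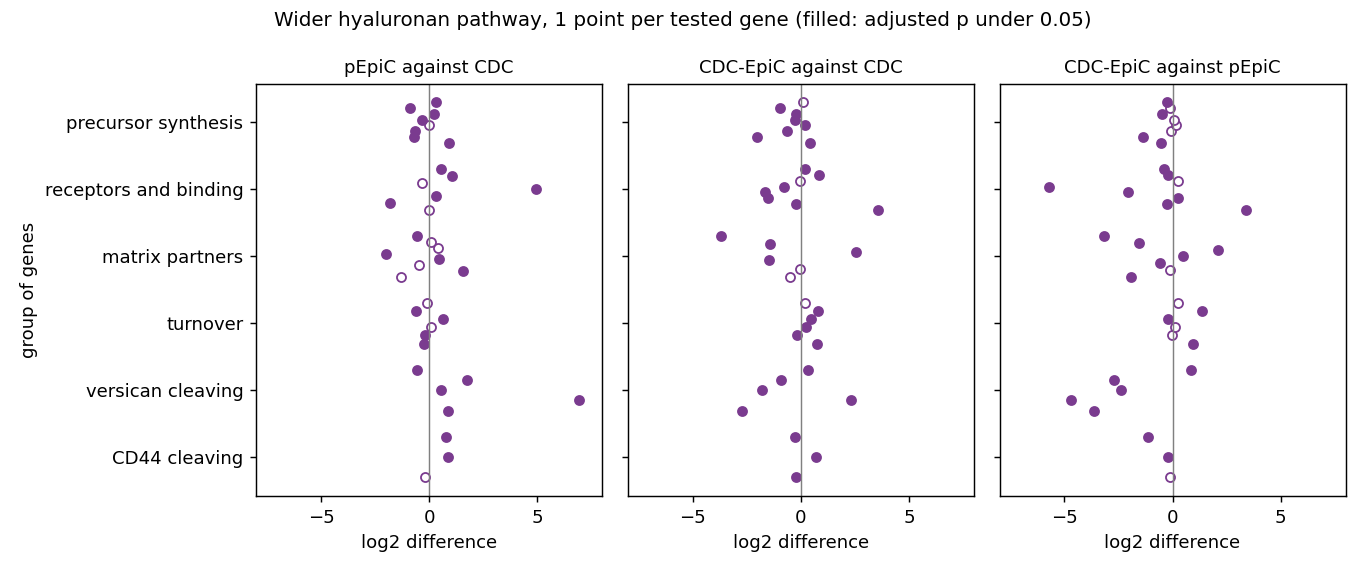
Log2 difference of each tested gene of the wider list, in 6 groups by role, for the 3 comparisons of kinds, filled where the adjusted p was under 0.05. The point farthest right in pEpiC against CDC is Adamts15 (6.94), and the point farthest left in CDC-EpiC against CDC is Ptx3 (-3.71).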

How the data were processed

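Poly(A) RNA from CDC, CDC-EpiC and pEpiC was sequenced as paired reads on a BGISEQ-500. The submitters' processing notes name HISAT2 2.0.4, Bowtie2 2.2.5, RSEM 1.2.12, DESeq2 1.4.5 and the build mm10, without their roles. The authors deposited expected counts per gene and library, of which 30.3% are not whole, with FPKM (per kilobase of transcript and per library size) and TPM (FPKM rescaled to a common sum). The 9 columns of means the authors deposited were not used. The labels give 1 sample per kind, and the table has 3 library columns for each. These were treated as n = 3. The extraction protocol mentions 3 separate samples, which can mean 3 of each kind or 1 of each of the 3 kinds, so whether the columns are biological replicates is not settled. The study's methods state fewer biological replicates than that, while the legend of its plot comparing primary CDC and epicardial cells gives n = 3. Counts of libraries of a kind differed by more than sampling noise (chi-square over its degrees of freedom, 4.89 to 23), so no library was a copy of another.

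Expected counts were rounded and fitted in edgeR 4.0.16 (R 4.3.3) for each pair of kinds: filterByExpr (minimum count 10, minimum total 15), TMM, glmQLFit, glmQLFTest and Benjamini-Hochberg adjustment over all genes tested, with a threshold of 0.05. Standard errors are the log2 difference over the root of the F statistic. CPM is counts per 1000000 after TMM over all 9 libraries. Levels of different genes were compared in TPM. On simulated counts, 88.3% to 89.4% of genes changed 1.5-fold and 97% to 100% of those changed 2-fold were recovered. The simulation gave all genes the same dispersion, changed only a small set of them and left genes with few counts out of that set. These rates therefore do not cover genes with few counts or data in which most genes differ. The alternatives were DESeq2 1.42.0, limma 3.58.1 on log2(FPKM + 1), log2(TPM + 1) and log2(TPM + 0.1), other scalings and filters, a length offset, a test against 1.5-fold, a replicate block and leaving out each library.

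The genes and lists were chosen with earlier results of these data known. All 10 were to be named. Of the wider list, called genes that changed 4-fold or more, with no overlap and 5 CPM in the higher kind were named, with Has2os, Hmmr, Lyve1, Cemip2, Ugdh, Ptx3 and members of the Itih family whatever their values. Hyal3 and Adamts9 were named after their values were seen. Positions are from GENCODE M21 (GRCm38, the same assembly as mm10) and promoters from RefSeq. Intervals of log2 differences are at 95%, from the fit. The reads carry no molecular identifiers, so PCR copies could not be told apart from separate molecules, and their part in the counting error was not measured. Python 3.11.15, pandas 2.3.3, NumPy 2.4.6 and matplotlib 3.10.9 were used.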

Additional observations from a re-analysis of the deposited data

How the results depend on the processing

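Over the alternatives, the counts of hyaluronan genes past the threshold stayed within 1.5 times the values reported in all 3 comparisons. The wider list lost calls when tested against a 1.5-fold change, with 12 genes in pEpiC against CDC, 15 in CDC-EpiC against CDC and 16 in CDC-EpiC against pEpiC, since that test asks for more. Shares of raw counts in place of TPM gave Has1 2.29%, 5.83% and 24.6% and Has3 3.05%, 16.1% and 30.6% in CDC, CDC-EpiC and pEpiC, and Has2 44.8% in pEpiC, since counts are not divided by length.

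Of the values of single hyaluronan genes, 442 kept direction and call, 11 gained a call, 21 lost one and 10 changed sign. With the length offset Cemip turned to -0.17 in pEpiC against CDC and to 0.12 in CDC-EpiC against pEpiC. In CDC-EpiC against CDC, Cemip was 0.03 with library totals and with FPKM, 0.05 with both TPM scales, and -0.12 to 0.05 when each library was left out in turn, positive without CDC library 1 (0.01), CDC library 3 (0.02) or CDC-EpiC library 1 (0.05). Has3 in the same comparison was 0.04 without CDC-EpiC library 1. The cause of these changes was not tested.

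Deviations of same-numbered libraries correlated at -0.091 to 0.138 between kinds, and differently numbered libraries reached -0.12 and 0.104. Such values over 3 libraries per kind cannot settle whether the numbers pair the kinds, and the main fits used no pairing. With the replicate block Has3 in CDC-EpiC against pEpiC had the same difference (-0.59) and an adjusted p of 0.0596. Depth limits Has1 and Has3, which had 4 to 36 counts per library.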
